A study of Mus musculus with 22 samples.

Results

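The regions described here are H3K27me3 peaks that lie between genes and far from them. A peak was included when the deposited annotation calls it distal intergenic, when it lies at least 30000 bp from the nearest annotated transcription start site, and when it is not on the X chromosome. This gave 1634 of the 19034 peaks of the table, or 8.58%, and they are called far intergenic peaks below. The assay was H3K27me3 CUT&RUN on mouse retinas collected at embryonic day 18.5. The cKO group was 5 animals labelled Jarid2 fl/fl; Rx-cre (replicate 1 female and replicate 2 male in batch 1, replicates 3 to 5 male in batch 2). The control group was 5 animals of mixed genotype: replicate 1 was a Jarid2 fl/+ male that also carried Rx-cre (batch 1), replicate 2 was a fl/+ female (batch 1), replicate 3 was a fl/fl male and replicates 4 and 5 were fl/+ males (batch 2). All animals were on a C57BL/6 background, and their mothers had received tamoxifen at 75 µg per g of body weight at E10.5, so both groups were exposed to the drug. Batch 1 came from 1 litter, and batch 2 was made of male littermates with technical duplicates.

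The labels' protocol names the inducible driver Rax-CreERT2, a Cre expressed in retinal progenitors, and describes the controls as fl/fl without Cre, whereas the labels of single samples give the genotypes above, which were used. Each animal's 2 retinas were pooled, so the mark was averaged over all retinal cell types, and a change in every cell cannot be told apart from a change in the mixture of cells. Counts of a histone mark do not show whether Jarid2 was deleted and do not identify cell types, so neither the genotypes nor the tissue label could be checked in this table.

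Polycomb repressive complex 2 (PRC2) methylates lysine 27 of histone H3, and the mark is found over silent developmental genes and over broad stretches of chromatin around them. Jarid2 is an accessory subunit that helps PRC2 bind chromatin and stimulates its activity. In CUT&RUN an antibody brings a nuclease to marked nucleosomes, the DNA beside them is cleaved off and sequenced, and reads therefore pile up over marked regions. Intergenic H3K27me3 often lies in gene deserts, the long gene-free stretches that flank developmental regulators and neuronal genes and hold many of their enhancers.

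An animal held 1688368 to 2864080 reads in all peaks of the table. Of these, 16307 peaks passed the filter on low counts and entered 1 edgeR fit with batch as a term, and Benjamini-Hochberg adjustment was made over all of them. Peaks with an adjusted p under 0.05 were called lower or higher. Levels are read counts scaled to CPM (per 1000000 reads in peaks), scaled between animals with TMM factors, and were not divided by peak width unless that is said. Peak positions are those of the deposited table (mm10).

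The far intergenic peaks were 601 to 37991 bp wide with a median of 2201 bp, against 2791 bp over all peaks. Their median distance to the annotated start site was 55.9 kb, and the longest was 396 kb. The start site was downstream or upstream about equally often, since 855 peaks lay upstream of it and 779 downstream. The gene that the annotation assigned was often not a coding gene: 467 peaks were assigned to a protein-coding gene, 403 to a processed pseudogene, 396 to a lincRNA and 368 to other kinds of gene. A peak is named below by its assigned gene only as a label. For most named peaks 1 or both of the flanking RefSeq protein-coding genes are given. Where only 1 is given, it is the nearer, and the other flank is left out. The median distance to the nearest RefSeq protein-coding gene was 101 kb. The RefSeq annotation placed 206 of the peaks within 30 kb of a coding gene and 26 of them over one, and 831 lay beyond 100 kb. The stretch between the flanking coding genes, called the coding-gene gap here, had a median size of 460 kb and reached 4511 kb.

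Although the deposited annotation has no start site within these peaks, 41 of the 1634 held a start site of RefSeq (GRCm38.p6, the assembly of mm10), and 37 of these held one of a long noncoding RNA. The RefSeq windows around these starts, which run from 250 bases before to 50 after each start, are the stretches of the peaks whose sequence could be read here. The 47 windows held a median of 3 CG dinucleotides, against 7 over all 32851 RefSeq windows of 300 bases, and 3 of the 47 (6.38%) held 10 or more CG, against 43.5% of all windows. CG-rich DNA is the usual seat of PRC2 at promoters in mammals. The sequences below are the windows at 4 noncoding RNA starts that lie in peaks called lower in cKO, shown to cover a range of CG counts. They run 5′ to 3′ on the strand of the RNA, with each CG in capitals.
Gm31845 (chr16:95668111-95668410, - strand): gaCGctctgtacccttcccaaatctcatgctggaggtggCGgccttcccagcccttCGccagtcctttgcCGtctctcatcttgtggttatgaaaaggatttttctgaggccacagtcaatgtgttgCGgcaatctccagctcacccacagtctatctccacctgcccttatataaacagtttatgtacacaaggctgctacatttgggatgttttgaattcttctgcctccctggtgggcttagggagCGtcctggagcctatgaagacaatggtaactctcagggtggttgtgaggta
Gm52576 (chr2:47834114-47834413, - strand): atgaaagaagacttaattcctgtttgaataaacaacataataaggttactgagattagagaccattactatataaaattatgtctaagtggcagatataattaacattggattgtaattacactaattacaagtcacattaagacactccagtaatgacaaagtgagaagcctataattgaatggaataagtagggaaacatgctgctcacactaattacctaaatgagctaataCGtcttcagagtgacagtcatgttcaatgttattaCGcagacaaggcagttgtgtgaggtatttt
Gm30575 (chr3:149088219-149088518, + strand): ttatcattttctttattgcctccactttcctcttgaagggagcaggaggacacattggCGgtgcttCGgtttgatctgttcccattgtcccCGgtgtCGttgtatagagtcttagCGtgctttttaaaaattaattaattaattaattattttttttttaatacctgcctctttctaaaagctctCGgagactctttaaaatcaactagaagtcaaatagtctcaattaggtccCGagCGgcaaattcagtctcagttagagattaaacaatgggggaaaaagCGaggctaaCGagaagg
Gm36234 (chr7:35923044-35923343, - strand): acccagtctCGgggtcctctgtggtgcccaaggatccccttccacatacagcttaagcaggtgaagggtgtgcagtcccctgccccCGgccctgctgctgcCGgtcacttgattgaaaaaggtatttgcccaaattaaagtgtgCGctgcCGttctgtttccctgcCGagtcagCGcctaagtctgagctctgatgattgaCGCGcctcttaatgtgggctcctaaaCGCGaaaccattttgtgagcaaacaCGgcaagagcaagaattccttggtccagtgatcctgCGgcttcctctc
The window of Gm31845 held 6 CG, and 56.4% of all windows hold at least as many. The window of Gm52576 held 2 CG (85.9% of windows hold at least as many), that of Gm30575 held 10 (43.5%) and that of Gm36234 held 13 (37.9%). CG reads the same on both strands, so each was counted once. The peak over the Gm31845 start, between Erg and Ets2, went from 30.4 ± 5.79 CPM in controls to 16.8 ± 5 CPM in cKO (means with SD, 5 animals in each group). Its log2 fold change was -0.83 with an SE of 0.13 and an adjusted p of 0.00015 from edgeR. The peak over the Gm52576 start went from 258 ± 77.5 to 171 ± 85.8 CPM (log2 fold change -0.66 ± 0.10, adjusted p = 0.0002). The peaks over the Gm30575 and Gm36234 starts fell by 0.30 and 0.29 on the log2 scale (adjusted p = 0.0142 and 0.0495). Starts with few CG and starts with 10 or more were thus both present among the lower peaks. Of the 40 peaks with a RefSeq start that could be tested, 8 were lower (20%, against 19.1% of all tested far intergenic peaks and 7.38% of all 16307 tested peaks).

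H3K27me3 was lower in the Jarid2 cKO at many of these peaks. Of the 1634 peaks, 1352 passed the filter on low counts. Of those, 258 fell (19.1%, against 7.38% of all 16307 tested peaks) and 6 rose (0.444%, against 1.46% of all), so that 97.7% of the calls were decreases, against 83.5% over all peaks. In either direction 19.5% were called, against 8.84% of all. The median log2 fold change was -0.13 (interquartile range -0.38 to 0.07), against 0.02 (-0.14 to 0.16) over all tested peaks, and 67.5% of the values were negative, against 45.6%. The far intergenic peaks made up 8.29% of the tested peaks, 21.4% of all lower calls and 2.52% of all higher calls. The number of lower peaks dropped to 82 when batch was not in the fit and to 9 when batch 1 was fitted alone, and DESeq2 called 186 lower and 1 higher.

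The decreases were mostly moderate. Among the 258 lower peaks the median fold was 1.53, and folds ran from 1.16 to 3.46. A decrease of at least 2-fold was found at 29 of them, which is 31.9% of the 91 such peaks in the whole table (0.558% of all tested peaks). The lower peaks were wide and strongly marked: their median width was 5566 bp, and the median level went from 48 CPM (controls) to 30.8 CPM (cKO). For the 1088 uncalled peaks the median width was 2396 bp and the median control level 12.1 CPM. Per kb of peak, the median control level was 8.84 CPM at the lower peaks and 5.15 CPM at the uncalled ones.

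The 282 peaks that did not pass the filter were short and sparse, with a median width of 831 bp and a median of 6.4 reads per animal, against 30.7 reads in the tested ones. Of these untested peaks, 52.5% had a larger share of the reads in cKO than in control. The mean count of none of them exceeded 9.8 reads per animal, and the main fit tested no difference there. A fit with no filter, which took them in, called 246 far intergenic peaks lower, all among the 258. It called 4 higher, 3 of them among the 6 higher calls of the main fit.

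The other classes of peaks were compared by the same fit, as a description with no test between classes. Among intronic peaks 293 of 1882 were lower (15.6%), with a median log2 fold change of -0.07. Among intergenic peaks closer than 30 kb to a start site, 196 of 3385 were lower (5.79%, median 0.07), and among promoter peaks 357 of 8376 (4.26%, median 0.03). The far intergenic peaks had the highest share of lower peaks of these 4 classes, followed by the intronic peaks. The plot of cumulative log2 fold changes shows the whole distributions.

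**Figure D1:**
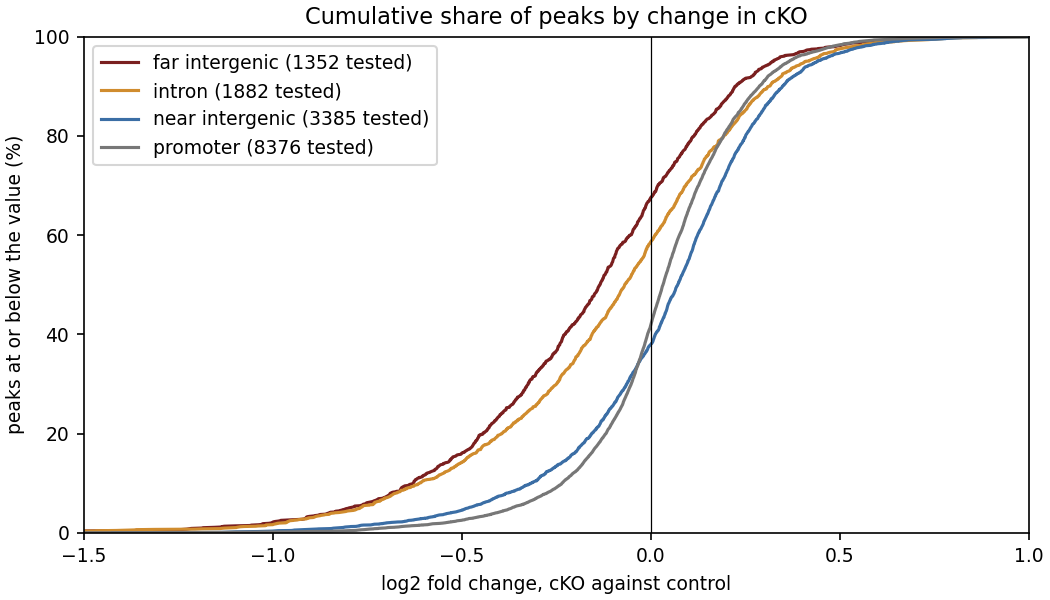
Cumulative share of tested peaks (percent) against the log2 fold change of cKO over control from edgeR, for far intergenic peaks (1352), intronic peaks (1882), intergenic peaks within 30 kb of a start site (3385) and promoter peaks (8376). The far intergenic curve lies to the left of the others over most of its length, with 67.5% of its peaks below 0.

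The same difference was visible in each animal's share of reads. In controls 4.12%, 4.76%, 4.89%, 5.18% and 5.36% of the reads in peaks lay in far intergenic peaks (replicates 1 to 5, mean 4.86% ± 0.477, SD). In cKO animals the shares were 3.86%, 3.87%, 4.41%, 4.52% and 4.60% (mean 4.25% ± 0.36). Within each batch every cKO animal was below every control animal, whereas across batches the groups overlapped, since control replicate 1 was below the batch 2 cKO animals. The difference of means was -0.613 percentage points, and it was -0.579 in batch 1 and -0.636 in batch 2. Near intergenic peaks held 8.80% ± 0.589 of reads in controls and 8.80% ± 0.33 in cKO, and promoter peaks held 76.3% and 77.6%. The share of intronic peaks was lower in cKO as well, with 4.94% ± 0.543 in controls and 4.38% ± 0.399 in cKO, and within each batch every cKO animal was below every control animal there too. A lower share was thus not particular to the far intergenic peaks. These shares sum to a whole, so a lower share in 1 class raises the others, and the table holds no spike-in measure of total H3K27me3.

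**Figure D2:**
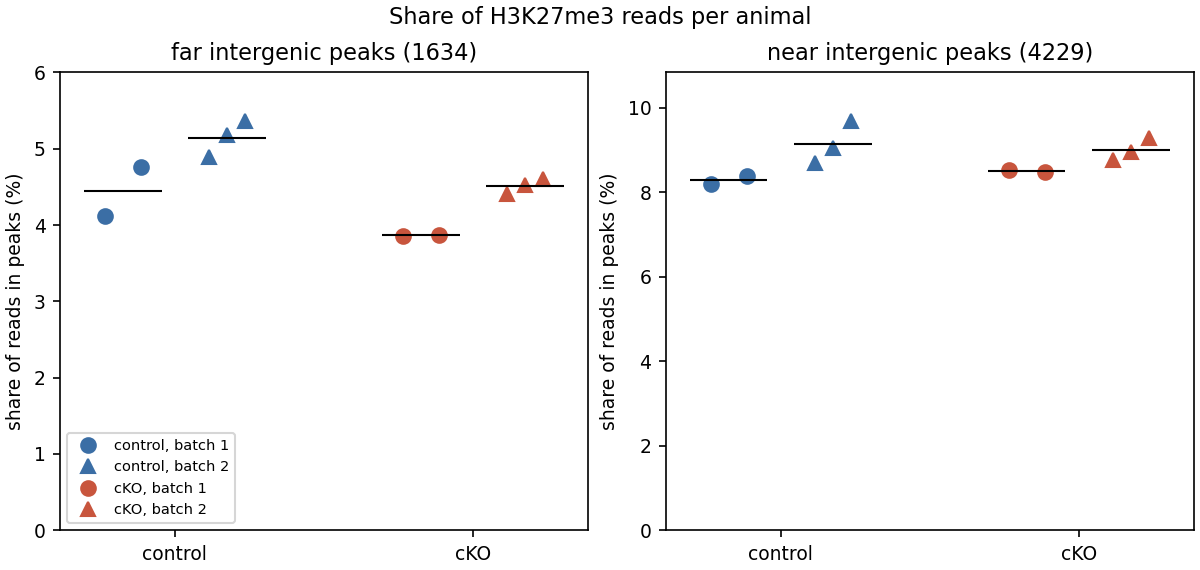
Share of each animal's reads in peaks (percent) that lay in the 1634 far intergenic peaks (left) and the 4229 intergenic peaks within 30 kb of a start site (right). Circles are batch 1, triangles batch 2, blue control, red cKO, and lines are means of a group in a batch. Within each batch the cKO animals lie below the controls on the left, from 3.86% to 4.60% against 4.12% to 5.36%, whereas on the right the batch 1 cKO animals lie above their controls and the batch 2 groups overlap.

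The change had the same direction in both batches and was somewhat larger in batch 1. Over all tested far intergenic peaks the median log2 fold change was -0.19 in batch 1 alone and -0.13 in batch 2 alone. Of the 258 lower peaks, 257 had a negative fold change in each batch fitted alone (99.6%, against 64.2% of the uncalled peaks with the same sign in both), with a median of -0.67 in batch 1 and -0.60 in batch 2. The change was larger in batch 1 at 172 of the 258. Since the calls were made on both batches together, this is a description of them. A test of the batch by genotype interaction called 0 of the 1352 peaks with edgeR (0.0123% of all tested peaks were called). At an unadjusted p under 0.05 it gave 66 of them, or 4.88%, against 3.94% of all tested peaks, and the smallest adjusted p was 0.238. This unadjusted count was 30 without cKO replicate 1 and 127 without control replicate 1. All 5 cKO animals were below every control animal of their batch at 250 of the 1352 tested peaks, while 7.59% of all tested peaks did so, and above every one at 22, against 3.94% of all. Among the 258 lower peaks 213 had this complete separation, a description as well, since the calls rest on the same animals.

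At most lower peaks control replicate 1, the control animal with Cre and 1 floxed allele, stood between the other batch 1 control and the cKO animals. At the 258 lower peaks its level was below that of control replicate 2 at 251 (97.3%). It lay between replicate 2 and the mean of the batch 1 cKO animals at 238. The same held at 355 of the 1088 uncalled far intergenic peaks and at 3862 of all 16307 tested peaks. Among the 1204 lower peaks of the whole table it held at 1078. The lower peaks were called with replicate 1 among the controls, which favours a level above cKO, so these counts are a description. The median log2 ratio of replicate 1 to replicate 2 at these peaks was -0.48, and that of the cKO mean to replicate 2 was -0.93. Over all 16307 tested peaks replicate 1 was below replicate 2 at 49.8%, with a median ratio of 0.00, and at the 1204 lower peaks of the whole table it was below at 94.4%. These are 2 animals that differ in sex as well as in Cre, and they are also the only batch 1 controls, so the contributions of Cre, the lost allele, sex and the single animal cannot be told apart. Without control replicate 1 the test called 284 lower and 9 higher far intergenic peaks.

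The 12 lower peaks with the smallest p, 1 for each assigned gene, were spread over 8 chromosomes. At each of them every cKO animal was below every control of its batch. The 12 were chosen by p and equal sign in both batches of these animals, so this separation is a description. The smallest p belonged to a peak of 8431 bp at chr17:69628760-69637190 (Gm22967), between Akain1 and Dlgap1, a gene of a postsynaptic scaffold protein. Control animals had 93.6, 100, 165, 170 and 162 CPM there (replicates 1 to 5), and cKO animals had 49.6, 54.1, 100, 93.5 and 112 CPM. The batch 1 animals of both groups were lower than those of batch 2, so the groups separated within batches and overlapped across them. The log2 fold change was -0.76 with an SE of 0.07, and the adjusted p from edgeR was 4.1e-06.

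At chr8:57006740-57017780 (Gm7328), 303 kb from Hand2, a transcription factor gene of heart and limb, control animals had 66.2, 103, 145, 145 and 159 CPM. The cKO animals had 33.6, 30.6, 85.6, 73.9 and 74.3 CPM. The 2 batch 1 cKO animals were the lowest of all 10, and the log2 fold change was -1.06 ± 0.10 (adjusted p = 4.8e-06). The steepest of the 12 was at chr3:6880660-6893300 (Gm22074), in the gap between 1700008P02Rik and Pkia, a gene of an inhibitor of protein kinase A. Controls had 44.8, 123, 154, 166 and 157 CPM and cKO animals 22.9, 23.5, 62.7, 53.9 and 56.4 CPM, a log2 fold change of -1.55 ± 0.16 (adjusted p = 6.4e-06). Control replicate 1 was far below the other controls there and lower than the batch 2 cKO animals.

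Of the 12, 3 lay in gaps flanked by a gene of the list of neuronal adhesion, axon guidance and synapse genes, at distances of 214 to 2830 kb. A pair lay on either side of Ncam2, a neural cell adhesion gene on chromosome 16. The one at chr16:80981540-80986940 (Fkbp1a-ps3), 214 kb before Ncam2, had 20.9, 60.4, 76.7, 73 and 84.7 CPM in controls and 11.7, 13, 26.5, 29.8 and 27.3 CPM in cKO (log2 fold change -1.53 ± 0.17, adjusted p = 8.8e-06). The one at chr16:84458190-84468400 (Gm6032), 2830 kb beyond Ncam2 and 250 kb from Mrpl39, had 73.7, 176, 220, 219 and 197 CPM in controls and 46.9, 46.1, 93.2, 98 and 90.3 CPM in cKO (-1.24 ± 0.14, adjusted p = 8.8e-06). In both, control replicate 1 was the lowest control and lay below the batch 2 cKO animals. The peak at chr11:38934790-38942490 (Gm23520) sat about midway in the desert between Tenm2, a teneurin gene of synaptic adhesion 1700 kb away, and Mat2b, 1740 kb away. It went from 116 ± 37.4 CPM in controls to 57.7 ± 18.9 CPM in cKO (SD, n = 5 each, log2 fold change -1.0 ± 0.11, adjusted p = 6.8e-06).

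The strongest signal among the 12 was over a 21461 bp peak at chr6:16717250-16738710 (Gm36669), between Mdfic and Tfec, a transcription factor gene related to Mitf. Controls had 245, 416, 512, 497 and 417 CPM there and cKO animals 152, 165, 269, 270 and 262 CPM, with the highest cKO animal above control replicate 1 only. The log2 fold change was -0.91 ± 0.10 (adjusted p = 8.8e-06). At chr12:39296050-39307520 (Gm18591), 426 kb from Etv1, an ETS transcription factor gene, the level went from 198 ± 48.6 to 109 ± 38.1 CPM (-0.87 ± 0.10, adjusted p = 8.8e-06). The remaining 4 were the peaks labelled Gm13531 (between Gpd2 and Galnt5), Gm27190 (between Sdhaf3 and Tac1, the gene of substance P), Gm43678 (between Stpg2 and Pdha2) and Ets2 (between Erg and Ets2, both ETS transcription factor genes). Their log2 fold changes were -1.03, -0.89, -1.01 and -0.99. All 12 stayed called when any 1 animal was left out. Not all 12 stayed called in batch 1 alone (Fkbp1a-ps3, adjusted p = 0.205 from edgeR) or without the batch term (Gm13531, 0.109).

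**Figure D3:**
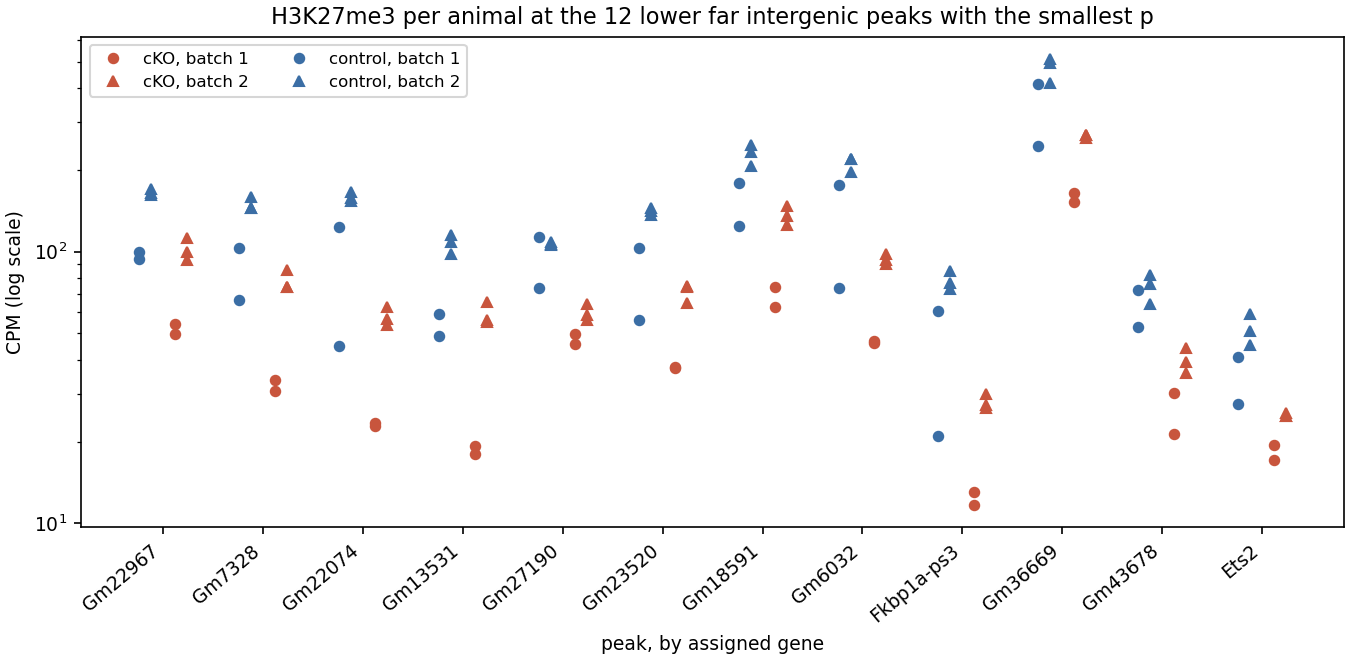
H3K27me3 level in each animal (CPM, log axis) at the 12 lower far intergenic peaks with the smallest p, labelled by assigned gene, with control in blue, cKO in red, batch 1 as circles and batch 2 as triangles. Within each batch the cKO animals lie below the controls at every peak, and the lower batch 1 control is replicate 1 at all 12, as at Gm22074 with 44.8 CPM against 123 CPM.

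At the 6 higher peaks the median fold was 1.49 and the largest 1.64, and the median level went from 11 CPM (controls) to 16.8 CPM (cKO). The most strongly marked, Gm49250, had 43.9 CPM in controls and 54.4 CPM in cKO. The clearest lay 243 kb from the start of Gata6, an endoderm and heart transcription factor gene on chromosome 18. Controls had 7.47 to 13.1 CPM there (mean 10.7 ± 2.09) and cKO animals 17.1, 14.5, 19.7, 19.6 and 16.5 CPM, without overlap between the groups, and the log2 fold change was 0.71 ± 0.14 (adjusted p = 0.00199). The peak labelled Gm3942, between Kcnc2, a potassium channel gene, and Atxn7l3b, went from 7.05 ± 0.984 to 11.3 ± 1.1 CPM (adjusted p = 0.0156).

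The other 4 higher peaks were labelled Gm49250 (beside Slc1a3, a glial glutamate transporter gene), Gm28514 (beside Zfp507), AA387200 (between Slc52a3 and Scrt2, a gene of a neuronal zinc finger repressor) and Gm48199 (between Gadd45g and Diras2). Their log2 fold changes were 0.30, 0.63, 0.50 and 0.52, with adjusted p from 0.0255 to 0.0435. The lower peak over the Gm36234 start was assigned to Gm28514 as well. Apart from Gata6, each of the 6 lost its call in 3 or more of the 10 fits that left out 1 animal, Gm28514 in 8 of them with an adjusted p of up to 0.14. The number of higher peaks was 1 without control replicate 3, 2 without cKO replicate 4 or 5, and 3 without control replicate 2 or 4 or cKO replicate 2 or 3.

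The share of lower peaks grew with the size of the coding-gene gap. In gaps under 200 kb 19 of 283 tested far intergenic peaks were lower (6.71%, below the 7.38% of all tested peaks). In gaps of 200 to 500 kb it was 58 of 376 (15.4%), in gaps of 500 to 1000 kb 70 of 353 (19.8%), and in gaps of 1000 kb or more 109 of 315 (34.6%). In the last group the median log2 fold change was -0.32 and 84.1% of the values were negative. The same order held for the intergenic peaks within 30 kb of a start site, where the shares were 1.75%, 12.0%, 14.6% and 30.7%. Peaks in large gaps were thus often lower whichever side of the 30 kb limit they were on. Spearman's rho between the log2 fold change and gap size was -0.37 across the far intergenic peaks, a description over peaks that share the same 10 animals.

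**Figure D4:**
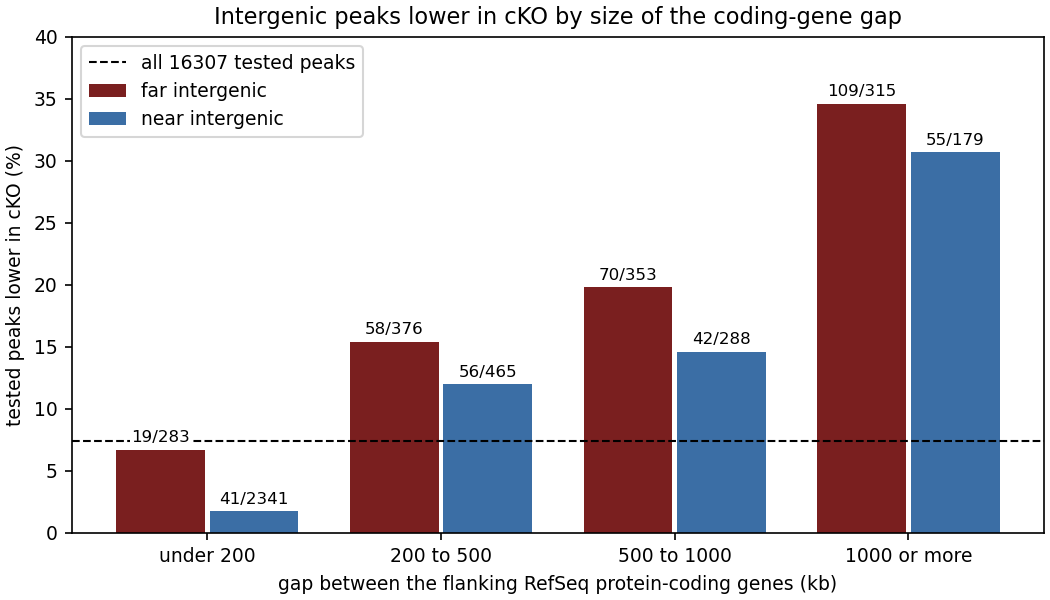
Percent of tested peaks called lower in cKO (edgeR, adjusted p under 0.05) by the size in kb of the gap between the flanking RefSeq protein-coding genes, for far intergenic peaks (dark red) and intergenic peaks within 30 kb of a start site (blue), with the number lower and tested above each bar. The dashed line is the 7.38% of all 16307 tested peaks, and in both classes the share is highest, 34.6% and 30.7%, in gaps of 1000 kb or more.

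Distance to the nearest gene showed the same order. By the deposited annotation, 13.9% of peaks at 30 to 40 kb from a start site were lower, 17.7% at 40 to 60 kb, 20.7% at 60 to 100 kb, 21.1% at 100 to 200 kb and 48.8% (20 of 41) beyond 200 kb. By RefSeq coding genes, 9.09% of peaks within 30 kb were lower, 10.4% at 30 to 100 kb, 24.1% at 100 to 300 kb and 35.0% beyond 300 kb. Peaks assigned to a protein-coding gene were lower in 9.68% of cases, and those assigned to a processed pseudogene in 26.2%, a lincRNA in 20.5% and any other kind of gene in 21.0%. Spearman's rho with the log2 fold change was -0.18 for the annotated distance and -0.36 for the distance to a RefSeq coding gene.

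The 3 peaks farthest from an annotated start site were labelled 4930519E07Rik (396 kb), Gm24319 (336 kb) and Gm22223 (333 kb). The first, between Hs3st1 and Rab28, went from 37.4 ± 8.47 to 25.8 ± 1.48 CPM (log2 fold change -0.53 ± 0.12, adjusted p = 0.00546). The peak labelled Gm22223 lay in the desert between the cadherin genes Cdh8 and Cdh11, with 30.9, 50.3, 39.1, 44.7 and 33.5 CPM in controls and 26.6, 25.6, 27.3, 29.8 and 30.6 CPM in cKO. No cKO animal reached the lowest control, and the log2 fold change was -0.49 ± 0.12 (adjusted p = 0.0115). Gm24319 had 16 ± 4.34 and 13.5 ± 1.51 CPM and was not called (adjusted p = 0.464). At the other end were the peaks on either side of the 30 kb limit. Just beyond it lay Gm5652 (138 and 119 CPM, log2 fold change -0.21) and Gm35325 (10.8 and 8.35 CPM, -0.39). Just short of it lay Gm32090 (139 and 132 CPM, -0.07) and Gm13626 (9.97 and 11 CPM, 0.15). Only Gm5652 was called, with an adjusted p of 0.0484 from edgeR. The adjusted p of Gm35325, Gm32090 and Gm13626 was 0.252, 0.617 and 0.697.

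Wide peaks were lower more often than narrow ones. The share was 6.27% under 1500 bp (16 of 255), 49 of 488 from 1500 to below 3000 bp, 20.5% from there to below 6000 bp, 43.7% (80 of 183) from there to below 12000 bp and 54.7% (41 of 75) at 12000 bp or more. Wide peaks also held more reads, and the part of depth in this order was not tested, while the median log2 fold change moved less, from -0.13 in the narrowest group to -0.25 in the widest. In the same width groups promoter peaks were lower in 1.30% to 8.40% of cases and near intergenic peaks in 1.30% to 30.1%. Intronic peaks went from 6.77% to 60.7%, above the far intergenic peaks in the narrowest and the widest group.

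**Figure D5:**
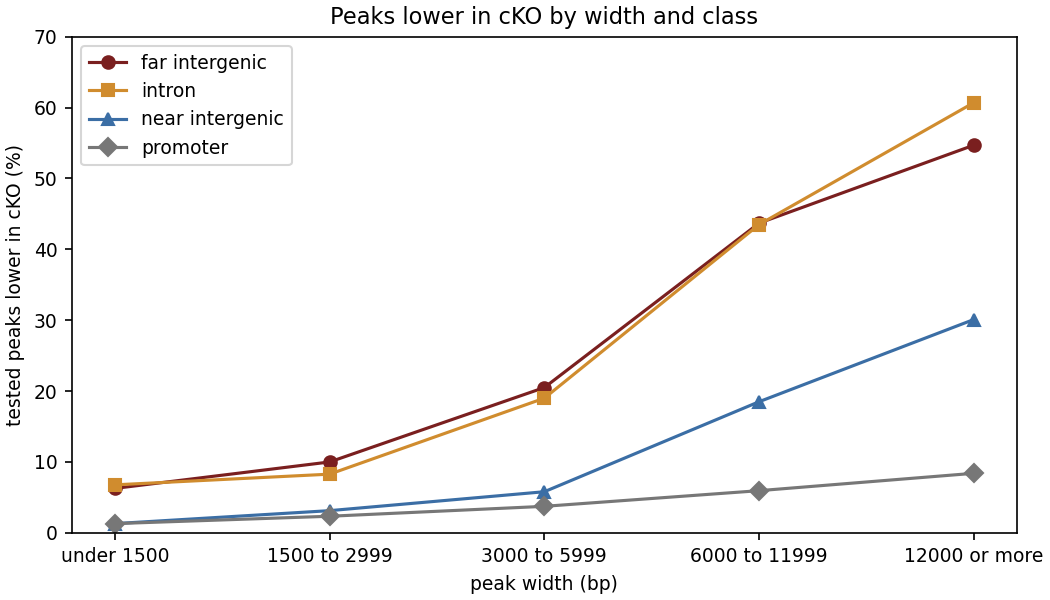
Percent of tested peaks called lower in cKO (edgeR, adjusted p under 0.05) by peak width in bp, for far intergenic, intronic, near intergenic (within 30 kb of a start site) and promoter peaks. Far intergenic and intronic peaks rise together, to 54.7% and 60.7% at 12000 bp or more, where promoter peaks reach 8.40%.

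Gap size and width were both related to the share of lower peaks. Among peaks under 3000 bp, 5.43% were lower in gaps under 500 kb and 12.2% in larger gaps, with a median log2 fold change of -0.02 and -0.23. Among peaks of 3000 bp or more, 19.6% and 44.0% were lower, with medians of -0.08 and -0.26. The difference in median between small and large gaps was therefore present at both widths. By the mean level per kb over all 10 animals, 3.03% were lower under 4 CPM per kb, 18.6% at 4 to 8 and 40.7% at 8 or more. The median log2 fold change in these level groups was 0.02, -0.16 and -0.20. Their median width was 1921, 2641 and 6831 bp, and the part of width and depth in this order was not tested. By chromosome the share ran from 10.2% on chromosome 18 to 37.0% on chromosome 3 (34 of 92), with 30.2% on chromosome 16.

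The 3 far intergenic peaks with the highest control level were wide, and 1 of them fell. The peak labelled Mir148a (33071 bp, between Npvf and Gm38821) had 796 ± 100 CPM in controls and 756 ± 53.7 CPM in cKO and was not called (log2 fold change -0.07 ± 0.07, adjusted p = 0.616). The peak labelled Gm9267 (26871 bp, between Sp4 and Sp8, zinc finger transcription factor genes) had 761, 637, 601, 602 and 590 CPM in controls and 651, 661, 645, 661 and 626 CPM in cKO, with overlapping groups (0.03 ± 0.06, adjusted p = 0.859). The peak labelled Gm6555 (35741 bp), 206 kb from Shox2, a homeobox gene of heart, limb and nervous system, had 601, 637, 807, 744 and 685 CPM in controls. The cKO animals had 389, 408, 615, 596 and 563 CPM there, all below the controls of their batch, and the log2 fold change was -0.45 ± 0.07 (adjusted p = 0.00019).

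Joining far intergenic peaks less than 50 kb apart gave 998 groups of peaks, of which 678 were single peaks and the largest held 19. Of the 998 groups, 230 held a called peak. Of the 320 groups of 2 or more peaks, 27 held 2 or more lower ones, and whether neighbours fell together more often than the overall 19.1% of lower peaks would give was not tested. A lower and a higher peak occurred together in 1 group, which held the Gm28514 peak that rose and the lower peak over the Gm36234 start.

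Between Erg and Ets2, at chr16:95618470-95669280, 3 of 4 tested peaks fell, and their sum went from 196 ± 41 to 118 ± 23.7 CPM (SD, n = 5 each). At chr2:160063270-160115600, between Dhx35 and Gm826, 3 of 4 fell, from 44.9 ± 8.44 to 27.7 ± 3.71 CPM. Between Mn1, a transcriptional regulator gene, and Cryba4, a crystallin gene of the lens, at chr5:111984810-112117070, 3 of 6 fell, and the sum went from 331 ± 39.9 to 279 ± 39.4 CPM. In the stretch before Shox2, at chr3:66682720-66800180, 2 of 4 tested peaks fell and the sum was 744 ± 89 and 547 ± 116 CPM. These 4 groups were chosen for their number of called peaks, so their sums are a description.

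Many far intergenic peaks in 1 gap could also stay uncalled. The gap with the most tested peaks, 421 kb between Tex29 and A230072I06Rik on chromosome 8, held 18, of which edgeR called 0, as did DESeq2 and limma-voom, and 3 had an unadjusted p under 0.05. The log2 fold changes of the 18 ran from -0.43 to 0.22, with a median of -0.11, and 14 were negative, among them those 3. The summed level was 1100, 1060, 1040, 1030 and 1010 CPM in controls (replicates 1 to 5). In cKO it was 927, 968, 978, 1010 and 981 CPM. In the 1808 kb gap between Slc4a3 and Epha4, an ephrin receptor gene of axon guidance, 2 of 13 fell, in the 789 kb gap of Mn1 and Cryba4 3 of 12, and in the 1221 kb gap of Megf9 and Gm11232 2 of 11. Far intergenic peaks that could be tested were found in 653 gaps, and 187 of these gaps held a lower one. The lower peaks were therefore spread over many gaps.

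Lists of genes were used to ask which genes the far intergenic peaks stood beside, counting a peak when its assigned gene or a flanking coding gene was in the list. Beside transcription factor genes of retinal progenitors and retinal cell types, 17 of 81 tested peaks fell (21.0%, median log2 fold change -0.17). Beside transcription factor genes of other organs and of brain and spinal cord, 43 of 197 fell and 1 rose (21.8% lower, median -0.16). Beside genes of neuronal adhesion, axon guidance and synapse organization, 46 of 153 fell (30.1%, median -0.30). Beside secreted signalling ligands and their modulators, 3 of 26 fell (11.5%, median 0.04). Beside no listed gene the share was 149 of 908 (16.4%, median -0.11), and it was 19.1% over all far intergenic peaks. No test between lists was made. A flanking gene was counted at any distance, and the lists were not matched for gap size. In gaps of 1000 kb or more 34.6% of tested far intergenic peaks were lower whichever genes flanked them.

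Among the retinal transcription factors, the lower peaks with the smallest p lay in gaps flanked by Isl1, Tfap2b and Meis2. Isl1 is a LIM homeodomain factor of ganglion, amacrine and bipolar cells, and the peak labelled Gm47913 (chr13:116509710-116522720) lay 200 kb from it. Controls had 158, 211, 190, 195 and 179 CPM there and cKO animals 131, 130, 125, 128 and 113 CPM, without overlap in either batch or across them (log2 fold change -0.57 ± 0.08, adjusted p = 3.6e-05). Tfap2b is a factor of amacrine and horizontal cells, and the narrow peak labelled Gm24633, 317 kb from it, had 4.48, 5.03, 13.4, 13.7 and 13.6 CPM in controls and 1.07, 2, 6.43, 4.45 and 5.17 CPM in cKO (-1.36 ± 0.19, adjusted p = 6.5e-05). The peak labelled Gm13990, in the gap between Meis2, the gene of a homeodomain factor of eye and brain 746 kb away, and Tmco5, 54.2 kb away, went from 169 ± 31.6 to 116 ± 12.5 CPM (-0.53 ± 0.08, adjusted p = 9.8e-05).

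Among the other transcription factors, besides the peak near Hand2, the peak labelled Gm18745 lay 73.2 kb from Foxb1, a forkhead gene of brain and spinal cord. It had 78.2, 78, 168, 149 and 140 CPM in controls and 37.8, 42.1, 108, 104 and 90.8 CPM in cKO (log2 fold change -0.70 ± 0.08, adjusted p = 1.7e-05). Batch 1 was low in both groups, and within each batch the groups were apart. The peak labelled Gm13471 lay in the large desert between Zeb2, a zinc finger repressor gene of neural development, and Acvr2a, an activin receptor gene. Zeb2 was 2900 kb away and Acvr2a 779 kb away. It went from 240 ± 31.2 CPM to 154 ± 3.44 CPM, where all 5 cKO animals fell between 150 and 159 CPM and the lowest control had 190 CPM (-0.64 ± 0.08, adjusted p = 2.3e-05).

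The 3 lower peaks beside secreted factors lay in gaps flanked by Dkk1, Rspo2 and Cxcl12. Dkk1 is an inhibitor of Wnt signalling. The peak labelled Gm24883 lay 185 kb from Dkk1 and 113 kb from Mbl2, the nearer coding gene. It had 27.4, 41.5, 43.8, 52.6 and 41.2 CPM in controls and 19.7, 22, 21.7, 29.4 and 30.1 CPM in cKO (log2 fold change -0.75 ± 0.12, adjusted p = 0.00035). Rspo2 enhances Wnt signalling, and the peak labelled by it, 18.4 kb from the RefSeq gene body and 168 kb from its start, had 35.3, 64.2, 38.4, 49.8 and 52.1 CPM in controls. The cKO animals had 43.2, 33.1, 19.7, 23.2 and 23 CPM there (-0.78 ± 0.16, adjusted p = 0.00226), so that cKO replicate 1 was above control replicate 1. The peak labelled Rpl28-ps4, 69.2 kb from Cxcl12, a chemokine gene, went from 57.9 ± 9.61 to 41.4 ± 6.64 CPM (-0.48 ± 0.11, adjusted p = 0.0056).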

How the data were processed

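H3K27me3 CUT&RUN counts were taken from the table that the authors deposited, which gives whole-number counts without normalization for 19034 peaks in 16 H3K27me3 libraries of 10 animals. Whether reads or fragments were counted is not stated, and they are called reads here. Libraries made with IgG (6) were not analysed here. The submitters' processing notes list the build mm10 and the tools MACS2, SAMtools, DESeq2 1.38.1 and Novoalign 4.02.02 without their roles. Which libraries the peaks were called on, what counted the reads and how duplicate reads were handled were not given in the sources used here. The gene and distance of each peak were used as deposited.

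The labels describe separate animals, and batch 2 animals had 2 technical duplicates, which were summed (chi-square per degree of freedom 0.88 to 0.997 for the 6 pairs, against 1.05 to 2.53 for 8 pairs of different animals). Peaks were filtered with filterByExpr and tested with edgeR 4.0.16 in R 4.3.3 (TMM, glmQLFit, glmQLFTest, batch as an additive term, Benjamini-Hochberg over 16307 peaks, called at 0.05). The SE of a log2 fold change was taken as its size over the square root of F. Log2 ratios of single animals used 0.5 CPM as pseudocount. The steps were tested on simulated data. RefSeq genes and windows came from GRCm38.p6 (21631 protein-coding genes used). Alternatives used other scalings, no filter, no batch term, a replicate block, single batches and duplicates, DESeq2 1.42.0, limma-voom (limma 3.58.1), autosomal peaks, each animal left out, a stricter threshold and other distance limits, and the filter and peaks tested were kept as they were wherever an alternative did not concern them. Figures were drawn with matplotlib 3.10.9.

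The peaks and gene lists were chosen with earlier results of these data known. Named peaks were the 12 lower and up to 12 higher calls of equal sign in both batches, ranked by adjusted p and 1 for each assigned gene, the 3 with the highest control CPM, the 3 farthest from a start site, the 2 on either side of the 30 kb limit and, for each list, up to 3 with the smallest p. Named groups were the 5 with the most called peaks. A result that this rule names, 1 of the 5 groups, is not reported here but was kept in all tests. The groupings by gap, width and level, the ranking of gaps, the comparison of the 2 batch 1 controls and the setting without RefSeq starts or coding genes were chosen after seeing the data.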

Additional observations from a re-analysis of the deposited data

Results flagged for a closer look

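Each group of 5 animals at each named peak was checked for 1 animal that stood apart from the others by Dixon's ratio of gap to range (critical value 0.71 for 5 samples). Of 72 groups checked, 4 exceeded it, and chance gives about 1 in 20. Among controls the ratio was 0.818 at Gm27190, where replicate 1 had 73.2 CPM and the others 106 to 113 CPM. It was 0.73 at Gm28514, where replicate 1 had 8.46 CPM and the others 5.49 to 6.29 CPM, and 0.722 at Gm9267, where replicate 1 had 761 CPM and the others 590 to 637 CPM. Control replicate 1, the control with Cre, was the separate animal in these 3 groups. Among cKO animals the ratio was 0.836 at AA387200, where replicate 1 had 12.3 CPM and the others 16.5 to 17.4 CPM.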

How the results depend on the processing

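Of the 258 lower far intergenic peaks, DESeq2 called 186 lower, limma-voom 243, batch 2 alone 200 and the total count scaling 221. The lower count was 9 in batch 1 alone (268 at an unadjusted p under 0.05) and 82 without the batch term. It was 170 with a limit of 50000 bp, 69 with 100000 bp and 393 with 30000 bp to a RefSeq coding gene, where a different number of peaks was tested (775, 273 and 2091). Leaving out 1 animal gave 215 to 284. The higher count was 6, and it was 1 with DESeq2, 0 in batch 1 alone with edgeR (7 unadjusted), 1 and 2 with the first or second duplicate only, 2 without the batch term, 10 with total counts, 1 at an adjusted p under 0.01, 3 and 1 with limits of 50000 and 100000 bp, 10 with the RefSeq limit and 1 to 9 without 1 animal. The median log2 fold change was -0.19 in batch 1 alone, -0.091 with total counts, -0.234 beyond 100000 bp and -0.162 to -0.111 without 1 animal. With total counts the median over all tested peaks was 0.068, against 0.022 in the main fit. The interaction count was 1 with total counts and 0 to 1 without 1 animal (1 without control replicate 1 or cKO replicate 2). The difference in read share was -0.798 to -0.488 percentage points without 1 animal. Peaks without a RefSeq start or coding gene gave 248 lower and 6 higher of 1290. The log2 fold change of the uncalled Gm9267 peak turned to -0.092 in batch 1 alone and ran from -0.004 (without control replicate 5) to 0.086 without 1 animal. The replicate block gave 254 lower and 4 higher with a median of -0.138. Animals of the same number deviated together with r of -0.444 to 0.094, so the numbers gave no pairing, and 2 of 5 controls correlated best with their own number. Of 30 named called peaks 24 stayed called without any 1 animal, and Gm5652 lost its call in 8 of the 10 fits (adjusted p up to 0.146). Without the batch term 16 lost it, and in batch 1 alone 26, and 0 of the 30 stayed called in every setting. The cause of these differences was not tested. Peaks left out by the main filter, none with a mean above 9.8 reads per animal, were tested only in the fit with no filter. That fit gave 246 lower and 4 higher far intergenic peaks.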

Other observations

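A gap with far intergenic peaks of the opposite sign was also seen. In the 384 kb gap between Begain and Dlk1 on chromosome 12, next to the imprinted gene Dlk1, all 10 tested peaks had a positive log2 fold change, from 0.06 to 0.46 with a median of 0.17. None was called by edgeR, DESeq2 or limma-voom, and 0 had an unadjusted p under 0.05. The sum of the 10 was 90.1, 81.2, 105, 114 and 119 CPM in controls (replicates 1 to 5) and 114, 105, 119, 115 and 125 CPM in cKO. In batch 2 the groups overlapped. This gap was picked after its values were seen.

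In the gap between Megf9 and Gm11232 on chromosome 4, where 10 of 11 tested peaks had a negative fold change, the sum was 219, 271, 360, 413 and 400 CPM in controls and 271, 179, 273, 305 and 303 CPM in cKO. Here cKO replicate 1 was at the level of control replicate 2 and above control replicate 1, while the batch 2 cKO animals were all below their controls.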
